A study of Mus musculus with 28 samples.

Results

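Dividing cells of the adult mouse subependymal zone, sorted by a Ki67-RFP reporter, were compared with cells sorted by a Troy-GFP reporter. All libraries labelled with either sort were taken, 4 of Ki67-RFP and 4 of Troy-GFP, which is 8 of the 28 libraries of the series. A cell was a well with at least 1000 transcripts apart from the ERCC spike-in RNA. This left 315 Ki67-RFP cells (76, 80, 76 and 83 per library) and 311 Troy-GFP cells (80, 76, 72 and 83), or 626 of 1789 cells. The series text speaks of about 1500 good cells among about 2500 sequenced, with no filter named.

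Ki67-RFP cells were RFP-positive cells of Ki67-tagRFP ki/ki mice, in which both copies of the Ki-67 gene carry the tag. Troy-GFP cells were GFP-positive cells of Troy-GFPiresCreER +/ki mice, in which 1 copy of the Troy gene, Tnfrsf19, carries the reporter. All mice were Bl/6 and 8 to 10 weeks old. The submitters used the first line to find dividing cells and the second to find neural stem cells (NSCs). Transcripts of single sorted cells were counted with SORT-seq, in which each well has its own barcode and each transcript a random barcode. Neither the number of mice nor their distribution over libraries is given in the labels, so p-values measure the spread between these libraries, which may be technical.

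The subependymal zone lines the lateral ventricles and makes new neurons throughout life. Its stem cells resemble astrocytes and are mostly quiescent. Once activated they divide, give rise to rapidly dividing transit-amplifying progenitors, and these to neuroblasts that still divide while they migrate to the olfactory bulb. Ki-67 protein is present in all active phases of the cell cycle and absent from resting cells, whereas Troy is a receptor of the tumour necrosis factor receptor family found on stem cells of several tissues.

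The libraries held 496202 to 572793 transcripts in Ki67-RFP and 418769 to 544025 in Troy-GFP, with library medians of 5890 to 6984 and 5014 to 6380 transcripts per cell. Summed Y-linked transcripts were at 0 in all Ki67-RFP libraries and at 381 to 407 CPM (counts per 1000000 transcripts) in all Troy-GFP libraries, and Xist stood at 435 to 504 against 0 to 9.21 CPM. The sex of the mice therefore cannot be told apart from the sort, and genes of chromosomes X and Y were left out. Troy-GFP libraries 1 and 2 were on the flow cell AHY73KBGXX, and the other 6 libraries on HVJH2BGXX. Between libraries of a sort, gene levels correlated at r = 0.932 to 0.938 within Ki67-RFP and 0.896 to 0.924 within Troy-GFP, against 0.421 to 0.510 between the sorts. These r are across genes, which are not independent replicates. All libraries used the same 96 well barcodes.

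Ki67-RFP cells carried neuroblast and mitosis transcripts and few astroglial ones, while most Troy-GFP cells carried many astroglial transcripts. To compare cells of unequal depth, each was thinned to 1000 transcripts and its transcripts of each marker list were added up. Of 10 astroglial markers, which quiescent stem cells and astrocytes share (such as the glutamate transporter gene Slc1a2 and the water channel gene Aqp4), the 4 Ki67-RFP libraries had a median of 0, 0, 0 and 1 transcript per cell. Troy-GFP libraries had medians of 41, 42, 43.5 and 43. Of 10 neuroblast markers (such as the tubulin gene Tubb3 and the transcription factor gene Sox11), Ki67-RFP medians were 8, 8, 8 and 9 and every Troy-GFP median was 0. The sorts thus did not overlap in either measure, library by library.

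Transcripts of the mitosis genes had medians of 11, 15, 6 and 12 per cell in Ki67-RFP libraries and of 1, 1, 2 and 2 in Troy-GFP libraries. Those of DNA replication genes had a median of 6 in every Ki67-RFP library and of 1 in every Troy-GFP library. The other cell measures also separated the sorts: 42.5% ± 2.59 of Ki67-RFP cells and 0.694% ± 1.39 of Troy-GFP cells had 10 or more neuroblast transcripts, and 2.83% ± 1.12 and 78.8% ± 1.82 had 10 or more astroglial ones (SD, n = 4 libraries each). For all 11 cell measures the exact 2-sided permutation test gave p = 0.0286, the smallest that 4 against 4 libraries allow (0.0286 after Benjamini-Hochberg adjustment over the 11). Among the 11 was the number of transcripts per spike-in transcript, with library medians of 15.9 ± 1.92 in Ki67-RFP and 10.4 ± 0.624 in Troy-GFP. Gene levels below are relative to library totals, so a gene that is lower by them need not be lower per cell. Genes detected per 1000 transcripts had library medians of 757 ± 5.27 in Ki67-RFP and 733 ± 10.6 in Troy-GFP. With 2000 transcripts per cell they were 1308 ± 12.3 and 1285 ± 20.2, the sorts overlapped and the difference did not pass (exact permutation p = 0.0857).

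No cell of either sort had 10 or more of both astroglial and neuroblast transcripts, which allows up to 1.16% of Ki67-RFP and 1.18% of Troy-GFP cells (exact 95% limit, counting error only). The limit of 10 cuts through a continuum on the neuroblast side, where 159 of 315 Ki67-RFP cells and 11 of 311 Troy-GFP cells had 5 to 14 transcripts. On the astroglial side 13 and 33 cells lay that near. Of the Ki67-RFP cells 170 (54%) had 10 or more mitosis transcripts, and of the Troy-GFP cells 17 (5.47%, 2 to 5 per library). The 170 Ki67-RFP cells had medians of 0 astroglial, 8 neuroblast and 7.5 replication transcripts, and the 17 Troy-GFP cells of 3, 3 and 11.

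**Figure D1:**
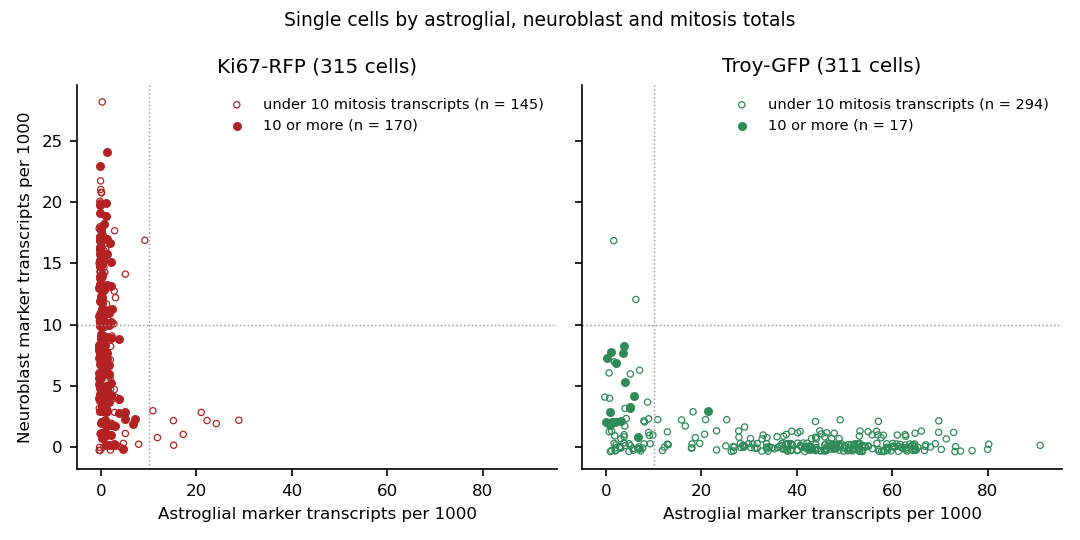
Astroglial (x axis) against neuroblast (y axis) marker transcripts per 1000 in each cell of the Ki67-RFP sort (left) and the Troy-GFP sort (right), jittered by less than 0.5, with filled points for cells with 10 or more mitosis transcripts (170 of 315 and 17 of 311). Ki67-RFP cells lie along the neuroblast axis and Troy-GFP cells along the astroglial axis, and no cell passes 10 on both.

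The genes after which the sorts were named differed in how far they separated the libraries. Mki67 carries the tag in the Ki67-RFP mice and Tnfrsf19 the reporter in the Troy-GFP mice. For these genes, here and below, an effect of the modified copies on the counts cannot be told apart from the sort. Mki67, the gene of Ki-67 (chr7:135689784-135716361, mm10), had 615, 695, 562 and 752 CPM in the 4 Ki67-RFP libraries, against 272, 224, 156 and 337 CPM in the Troy-GFP libraries. All Ki67-RFP values lay above all Troy-GFP values, with a log2 fold change of 1.45 ± 0.16 (standard error; limma adjusted p = 1.19e-08). Tnfrsf19 (chr14:60963875-61046490) had 98.2, 41.3, 83.1 and 114 CPM in Ki67-RFP libraries, against 176, 134, 105 and 132 CPM in Troy-GFP libraries, and the 2 ranges overlapped. Its log2 fold change of -0.77 ± 0.23 passed (limma adjusted p = 0.00487), but not without Ki67-RFP library 2 (-0.44) or within the shared flow cell (-0.57). CPM of single genes are taken over the tested genes of a library and scaled by the trimmed mean of M values, and each sum over cells mixes how many cells carry a transcript with how much RNA each holds, which cannot be told apart.

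**Figure D2:**
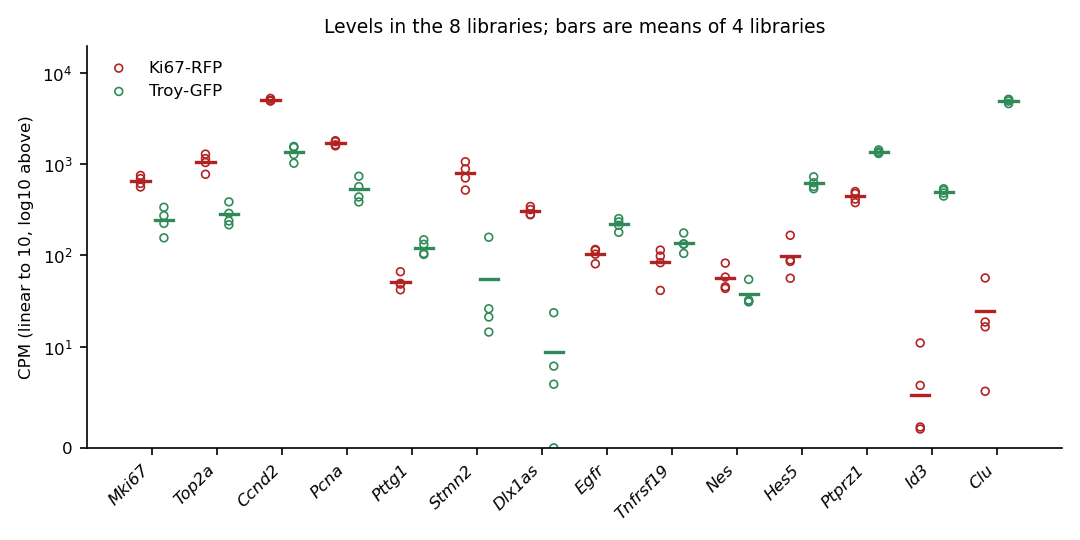
Levels of 14 genes in the 4 Ki67-RFP (red) and 4 Troy-GFP (green) libraries, as CPM on an axis that is linear to 10 and log10 above, with bars at the means. Mki67, Top2a, Ccnd2, Pcna, Stmn2 and Dlx1as are higher in every Ki67-RFP library, Pttg1, Egfr, Hes5, Ptprz1, Id3 and Clu are lower in every one, and Tnfrsf19 and Nes overlap.

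Over all genes 59.7% passed the test, 4833 of 8101 (limma voom, Benjamini-Hochberg adjusted p below 0.05): 2311 were higher in Ki67-RFP (28.5%) and 2522 lower (31.1%). For 4258 genes (52.6%) the libraries of the sorts did not overlap. Counts for gene lists below are to be read against these shares, and the median log2 fold change of all tested genes was -0.01. Counts given after thinning have another background, 532 higher and 622 lower of 1716 genes tested. In most lists of the cell cycle and of neuroblasts nearly all tested members were higher in Ki67-RFP, and in lists of astroglial transport, matrix and metabolism most were lower.

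**Figure D3:**
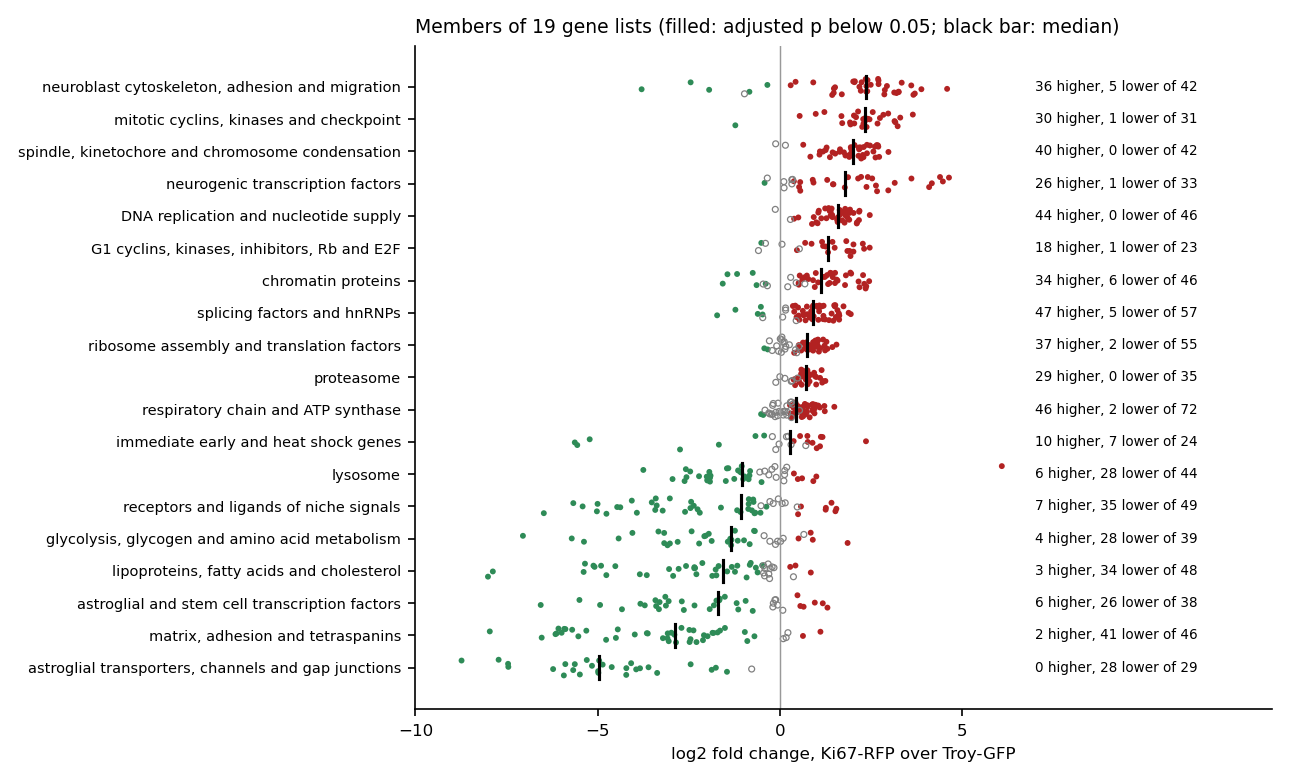
Log2 fold changes (x axis, Ki67-RFP over Troy-GFP) of the tested members of 19 gene lists, filled where the adjusted p was below 0.05 (red higher, green lower) and open where not, with the list's median as a black bar and its counts at the right. Medians run from 2.36 for the neuroblast cytoskeleton to -4.96 for astroglial transporters.

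DNA replication genes were higher as a group. Of 46 listed genes of replication origins, forks and nucleotide supply all were tested, 44 passed as higher in Ki67-RFP, none as lower, and their median log2 fold change was 1.59. Pcna, the sliding clamp of DNA polymerases (chr2:132249162-132253314), had 1807, 1587, 1629 and 1764 CPM in Ki67-RFP libraries and 437, 737, 568 and 385 CPM in Troy-GFP libraries, so that even the highest Troy-GFP library stayed below the lowest Ki67-RFP library. Rrm2, which encodes a subunit of ribonucleotide reductase (chr12:24708241-24714146), had 604, 588, 554 and 600.3 CPM, against 74.1, 142, 146 and 80.7 CPM in Troy-GFP. Its log2 fold change of 2.46 ± 0.17 was the highest of the list (limma adjusted p = 2.34e-12), ahead of that of the licensing factor gene Cdt1 (2.18 ± 0.22).

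Within Troy-GFP, library 2 was the highest for Pcna and for the helicase subunit gene Mcm6, whose values were 421, 366, 340.2 and 338 CPM in Ki67-RFP and 87, 131, 104 and 98.9 CPM in Troy-GFP. Mcm7, another subunit of that helicase, changed by 1.80 ± 0.14, and Slbp, whose protein binds histone mRNAs, by 1.64 ± 0.17. Both listed genes that did not pass act at the fork: Pola2, the accessory subunit of polymerase alpha, with 209.7 ± 19 CPM in Ki67-RFP and 235 ± 74.8 in Troy-GFP (limma adjusted p = 0.55), and Rpa1, which coats single-stranded DNA, with 70.5 ± 21.4 and 56 ± 13.4 (limma adjusted p = 0.31). Pola2 passed as lower without Troy-GFP library 4 (-0.36) and turned positive without Troy-GFP library 2 (0.03) and within the shared flow cell (0.23).

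Genes of mitosis had the highest medians beside the neuroblast cytoskeleton. In the list of mitotic cyclins, kinases and checkpoint proteins 30 of 31 tested members were higher and 1 lower, with a median of 2.32. In that of the spindle, kinetochore and chromosome condensation 40 of 42 were higher and none lower, with a median of 2.00. Ccnb1, the cyclin of mitotic entry (chr13:100778650-100786570), had 229, 265, 240.0 and 235 CPM in Ki67-RFP libraries and 18.8, 20.6, 24.3 and 36.4 CPM in Troy-GFP libraries. This is a difference of 3.30 ± 0.25 (limma adjusted p = 2.26e-11), with a wide gap between the libraries of the sorts.

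Top2a, the topoisomerase that untangles sister chromosomes (chr11:98992943-99024189), had 1042, 1151, 775 and 1289 CPM, against 289, 386, 216 and 238 CPM in Troy-GFP. Ki67-RFP library 3 was the lowest of its sort for Top2a, for the cyclin gene Ccna2 (420.3, 456, 304 and 381 CPM), for Cdk1, the kinase that drives mitosis (283, 437, 187 and 349.6 CPM), and for Nusap1, a spindle protein gene (196, 231, 105 and 179.5 CPM). The Troy-GFP libraries had 78.2, 115, 60.2 and 96.2 CPM of Ccna2, 50.4, 78.7, 37.8 and 57.4 CPM of Cdk1 and 27.2, 24.8, 5.39 and 36.4 CPM of Nusap1, all below the lowest Ki67-RFP library. Ube2c, which encodes the ubiquitin-conjugating enzyme of the anaphase-promoting complex, changed by 3.14 ± 0.29 (limma adjusted p = 5.13e-10), Ccnf, an F-box cyclin gene, by 3.65 ± 0.62, and the spindle gene Knstrn by 2.72 ± 0.37.

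Pttg1, the gene of securin, which keeps sister chromosomes from being separated before anaphase (chr11:43420250-43426251), went against its list. It had 66.2, 49.3, 48.4 and 41.9 CPM in Ki67-RFP libraries and 102, 105, 148 and 132 CPM in Troy-GFP libraries, without overlap, and changed by -1.22 ± 0.20 (limma adjusted p = 8.82e-06). Of the spindle list, Arl6ip1, which encodes a membrane protein of the endoplasmic reticulum, had 558 ± 138 CPM in Ki67-RFP and 493 ± 55.6 in Troy-GFP (limma adjusted p = 0.37), a difference that passed without Ki67-RFP library 3 (0.32). Ckap5, a microtubule polymerase gene, had 208 ± 27.1 and 224 ± 33.7 CPM (limma adjusted p = 0.5). Of the Troy-GFP cells with 10 or more astroglial transcripts, 82.9% had a transcript of Arl6ip1 and 60.8% of Ckap5, against 6.94% with Top2a and 5.31% with Mki67 (34.7%, 16.7%, 3.27% and 0.816% after thinning to 1000 transcripts). Arl6ip1 was also found in 15 of the 25 Troy-GFP cells with 5 or more endothelial transcripts, and in 8 of them after thinning.

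Promoters of the mitosis genes shared 2 short words that the choice of genes did not use. The word TTTGAA, the core of the cell cycle gene homology region (CHR), was found on either strand in 46 of 69 windows of the mitosis lists (66.7%), against 17.9% of all 32851 windows and 11.6% of those of tested genes. CCAAT, the box bound by NF-Y, was found in 49 of 69 (71%), against 37.4% and 38.1%, and both words in 55.1%, against 6.95% and 4.94%. CCAAT alone was not particular to mitosis genes. It was also in 55.6% of windows of the replication list and 52.8% of those of the astroglial and stem cell transcription factor list. A window covers the 250 bases before and 50 after a gene's start in RefSeq's annotation of GRCm38.p6, and 63 of the 76 mitosis genes had at least 1. The 4 promoters below, of genes described above, are shown in transcript direction with CHR and CCAAT words of both strands in capitals.
Top2a, chr11:99024140-99024439, minus strand: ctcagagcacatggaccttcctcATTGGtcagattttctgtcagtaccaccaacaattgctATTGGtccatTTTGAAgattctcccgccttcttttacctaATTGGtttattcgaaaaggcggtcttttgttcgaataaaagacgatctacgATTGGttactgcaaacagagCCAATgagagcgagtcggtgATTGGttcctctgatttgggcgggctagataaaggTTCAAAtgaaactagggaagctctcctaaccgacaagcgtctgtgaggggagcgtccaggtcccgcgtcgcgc
Mki67, chr7:135716330-135716629, minus strand: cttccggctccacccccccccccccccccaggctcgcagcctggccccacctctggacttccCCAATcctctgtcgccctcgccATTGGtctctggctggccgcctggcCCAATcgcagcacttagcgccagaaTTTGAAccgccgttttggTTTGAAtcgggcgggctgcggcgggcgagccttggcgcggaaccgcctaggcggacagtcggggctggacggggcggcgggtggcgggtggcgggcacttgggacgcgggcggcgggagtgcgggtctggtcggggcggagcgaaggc
Cdk1, chr10:69352863-69353162, minus strand: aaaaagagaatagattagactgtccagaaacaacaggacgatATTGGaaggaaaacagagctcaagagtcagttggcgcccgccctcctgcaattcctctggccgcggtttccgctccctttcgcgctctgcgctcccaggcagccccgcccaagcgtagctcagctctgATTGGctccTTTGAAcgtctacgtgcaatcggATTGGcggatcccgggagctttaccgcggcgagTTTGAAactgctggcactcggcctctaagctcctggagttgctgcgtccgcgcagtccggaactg
Ube2c, chr2:164769679-164769978, plus strand: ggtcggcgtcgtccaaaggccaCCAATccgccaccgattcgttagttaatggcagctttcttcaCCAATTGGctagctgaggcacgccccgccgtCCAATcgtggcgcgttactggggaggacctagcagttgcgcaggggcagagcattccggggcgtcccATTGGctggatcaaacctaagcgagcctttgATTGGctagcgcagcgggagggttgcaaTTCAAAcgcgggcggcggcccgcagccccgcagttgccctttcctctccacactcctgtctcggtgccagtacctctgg
In these windows the CHR word nearest to the start began at -23 in Top2a, -98 in Mki67, -15 in Cdk1 and -29 in Ube2c, counted from the start site. A pair of CCAAT words of opposite strands overlaps in Ube2c. A word is a description of the letters and not a bound site.

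Replication genes had another word besides CCAAT. The E2F words, which are TTT, then 2 letters that are each C or G, then CGC on either strand, were found in 14 of 45 windows of the replication list (31.1%), against 2.26% of all windows and 4.46% of those of tested genes, and in 10.1% of the mitosis windows. CHR stood in 13.3% of the replication windows. The Mcm6 promoter is shown with its E2F words in capitals, where 2 words of opposite strands overlap at -110 and -106 and another begins at -47.
Mcm6, chr1:128359656-128359955, minus strand: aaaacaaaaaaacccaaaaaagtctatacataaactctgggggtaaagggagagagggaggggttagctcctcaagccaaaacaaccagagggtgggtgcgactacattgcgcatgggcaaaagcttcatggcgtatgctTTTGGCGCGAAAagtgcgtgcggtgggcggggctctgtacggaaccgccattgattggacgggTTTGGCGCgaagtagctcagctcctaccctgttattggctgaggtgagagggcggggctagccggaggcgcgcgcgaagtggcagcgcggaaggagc

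Genes of the G1 phase were mostly higher. Of 23 tested cyclins, kinases, inhibitors and members of the Rb and E2F families 18 were higher and 1 lower, with a median of 1.32. Ccnd2, a D-type cyclin (chr6:127125162-127152193), had 5002, 4920.4, 5258 and 4981 CPM in Ki67-RFP libraries and 1277, 1024, 1527 and 1563 CPM in Troy-GFP libraries. Its partner kinase gene Cdk4 changed by 1.82 ± 0.12, and E2f8, an E2F repressor gene, by 2.31 ± 0.36. Cdkn1b, the gene of the cell cycle inhibitor p27, was also higher, with 312, 407, 301 and 396 CPM in Ki67-RFP libraries and 147, 128, 154 and 200.1 CPM in Troy-GFP libraries (1.18 ± 0.15, limma adjusted p = 2.20e-07). Rb1, the retinoblastoma gene, was lower by the test (119 ± 23.3 against 169 ± 15.7 CPM), a call that ended without Ki67-RFP library 1 (-0.36) or the filter on low values (-0.39).

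Genes of chromatin, splicing, translation and protein turnover were higher in varying shares. Of 46 chromatin genes 34 were higher and 6 lower. Hmgn2, a nucleosome-binding protein gene, had 5498, 6225, 5925 and 5664 CPM in Ki67-RFP libraries and 1057, 1135, 1105 and 969 CPM in Troy-GFP libraries. The libraries of each sort lay close together for it, and its log2 fold change was 2.45 ± 0.08 (limma adjusted p = 5.31e-19). H3f3b, which encodes the replacement histone H3.3, changed by 2.28 ± 0.10, the linker histone genes H1f0 by 2.37 ± 0.15 and H1fx by 3.69 ± 0.43, and Ptma, the gene of prothymosin alpha, by 1.45 ± 0.07. Lower chromatin genes included those of the Polycomb methyltransferase Ezh1 (19.1 ± 5.65 against 56.2 ± 5.29 CPM) and the 5-methylcytosine oxidase Tet2 (40.1 ± 10.1 against 108 ± 19.6 CPM). The other 4 were Hmgn3, Tet1, Chd4 and Supt16. After thinning 28 of 32 chromatin genes were higher and 2 lower.

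Of 57 splicing genes 47 were higher and 5 lower, with a median of 0.91 (23 and 6 of 41 after thinning). Hnrnpab had 1448 ± 90.3 CPM in Ki67-RFP and 377 ± 43.4 in Troy-GFP, and Snrpe, a core protein gene of the spliceosome, 539 ± 46.2 and 146 ± 18.4. Qk, the gene of quaking, an RNA-binding protein of glia, went the other way, with 383, 334, 349 and 459.7 CPM in Ki67-RFP libraries and 1286, 1289, 1255 and 1180.2 CPM in Troy-GFP libraries (-1.72 ± 0.11, limma adjusted p = 3.56e-13), and so did Snrnp70, a component of the U1 particle (-1.22 ± 0.14). Proteasome genes were higher in 29 of 35 cases and lower in none, with a median of 0.71 (9 and 0 of 22 after thinning), for example Psmc6 (1.18 ± 0.16) and Psmb1 (0.81 ± 0.13).

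Genes of ribosome assembly and translation factors were higher in 37 of 55 cases and lower in 2, with a median of 0.74 (17 and 2 of 31 after thinning). The elongation factor gene Eef1a1 had 5859.9 ± 148 CPM in Ki67-RFP and 2008 ± 150.2 in Troy-GFP, and the nucleolar gene Npm1 1576 ± 32.1 and 591 ± 99.6. The initiation factor gene Eif4g1 was lower (-0.43 ± 0.15), a call that ended in 5 of 22 alternatives, among them without Ki67-RFP library 2 (-0.29). Respiratory chain genes were higher in 46 of 72 cases and lower in 2, with a median of 0.43. After thinning the median was 0.13, with 14 of 50 higher and 5 lower. That share of higher genes lay below that of all genes after thinning (532 of 1716). Cox7a2 changed by 1.49 ± 0.13 and Atp5e by 1.23 ± 0.13, both small subunits of respiratory complexes, while Sdha, the catalytic subunit of succinate dehydrogenase, was lower (-0.52 ± 0.15).

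Genes known from neuroblasts and interneurons, such as Stmn2, Sp9 and Gad1, were among those with the highest fold changes. Of genes with an average log2 CPM of at least 5 and libraries that did not overlap, the 12 highest were Dlx1as, Stmn2, Sp9, Bcl11b, Dlx6os1, Gad1, Ttc9b, Tubb3, Tiam2, H1fx, Igfbpl1 and Rnf165. Bcl11b, a zinc finger transcription factor gene (chr12:107910403-108003602), had 178, 155, 159 and 149.9 CPM in Ki67-RFP libraries and 2.09, 16.5, 8.07 and 15.5 CPM in Troy-GFP libraries, which is 17.1-fold (4.09 ± 0.44, limma adjusted p = 1.21e-08). Tiam2, an activator of the GTPase Rac (chr17:3326573-3531344), had 241, 267, 202 and 231 CPM against 8.35, 12.4, 46 and 23.3 CPM, and Igfbpl1 109.7, 154, 183 and 143 against 2.09, 14.4, 40.6 and 10.3. For both, and for Stmn2 (21.1, 14.4, 158 and 26 CPM) and Tubb3 (42.2, 43.4, 119.9 and 68.1 CPM), the highest of the Troy-GFP libraries was library 3. That library also held the only Troy-GFP cells with 10 or more neuroblast transcripts, 2 of 311. Exons of Dlx1as, Sp9, Ttc9b and Tiam2 overlap those of another gene on the opposite strand, as do those of Dlx1, Ccna2, Ube2c, Nusap1, Mcm7, Cdk4, Rb1, Nfix, Ctsb, Hnrnpab and Gapdh, and whether the counting used the strand is not given in the sources used here.

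Of 33 tested neurogenic transcription factor genes 26 were higher and 1 lower, with a median of 1.78. Sox11 had 3091, 3504, 3190.0 and 2984 CPM in Ki67-RFP libraries and 552, 409, 560.0 and 749.5 CPM in Troy-GFP libraries, and its relative Sox4 678, 743, 839 and 854 CPM, against 207, 129, 231 and 349 CPM in Troy-GFP. Both act in newborn neurons, and for both Troy-GFP library 4 was the highest of its sort. Dlx1, a homeobox gene of interneurons, changed by 2.41 ± 0.14, and St18, a zinc finger gene, by 4.64 ± 0.61, the highest of the list. Klf7 was the gene that was lower (-0.42 ± 0.17, limma adjusted p = 0.0331), a call that ended in 8 of 21 alternatives, among them without Ki67-RFP library 2 (-0.28) or 3 (-0.40) or Troy-GFP library 1 (-0.42) or 3 (-0.35).

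Of the 8 markers of activated stem cells and transit-amplifying progenitors 5 were higher and 2 lower, and their summed level was 5783 to 6286 CPM in Ki67-RFP and 1759 to 2519 in Troy-GFP. Most of that sum was Ccnd2, which averaged 5040.5 CPM in Ki67-RFP and 1348 in Troy-GFP. Hes6, a transcription factor gene that promotes neurogenesis, changed by 0.92 ± 0.15, a call that ended after thinning (0.50), and Gsx2, a homeobox gene, by 0.90 ± 0.27, a call that ended within the shared flow cell (0.81). Egfr, the receptor of the mitogen EGF, was lower, with 80.8, 103, 116 and 114 CPM against 233, 214, 179 and 253 CPM. Rgcc, a cell cycle regulator gene, was at 0 in all Ki67-RFP libraries and at 224, 165, 181 and 137 CPM in Troy-GFP, at least 123-fold lower (taking 3 transcripts over the Ki67-RFP group as the floor).

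Of 42 tested genes of the neuroblast cytoskeleton, adhesion and migration 36 were higher and 5 lower, and the median of 2.36 was the highest of the lists. Stmn1, a tubulin-binding protein gene (chr4:134468320-134473843), had 4680.2, 5665, 4816 and 4990.0 CPM in Ki67-RFP libraries and 731, 654, 769 and 979 CPM in Troy-GFP libraries. The tubulin genes Tuba1a and Tubb5 changed by 2.04 ± 0.08 and 2.49 ± 0.12. Those that were lower included 2 genes of axon guidance and adhesion: Nrcam, an adhesion molecule of the immunoglobulin family, with 24.8, 16.4, 13 and 20.04 CPM against 281, 249.8, 292 and 228 CPM, and Epha5, an ephrin receptor, with 8.92 ± 7.38 against 36 ± 3.25 CPM. The other such genes were Tubb2a, Mapt and Dclk1.

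The genes with the lowest fold changes included the astroglial markers Aqp4, Clu and Aldoc. By the same rule the 12 lowest were Aqp4, Clu, Cxcl14, Pla2g7, Slc4a4, Htra1, Aldoc, Grm3, Id3, Syne1, Mgll and Fam107a. Cxcl14, a chemokine gene (chr13:56288643-56296551), had 0, 10.3, 1.86 and 0 CPM in Ki67-RFP libraries and 594, 566, 516 and 509 CPM in Troy-GFP libraries. Htra1, a secreted serine protease gene (chr7:130936111-130985660), had 6.20, 6.17, 3.73 and 12.8 CPM against 1291, 1400.4, 1158 and 1066 CPM, or 161-fold lower in Ki67-RFP (-7.34 ± 0.45, limma adjusted p = 2.37e-13). Both genes were at 12.8 CPM or less in every Ki67-RFP library. Pla2g7, whose enzyme inactivates platelet-activating factor, had 3.69 ± 4.26 against 693 ± 139 CPM, and Mgll, which encodes monoacylglycerol lipase, 5.72 ± 4.61 against 454 ± 61.9. Grm3, a metabotropic glutamate receptor gene, had 2.91 ± 2.39 against 337 ± 45.5 CPM, Syne1, which encodes a protein of the nuclear envelope, 10.2 ± 4.02 against 966 ± 106, and Fam107a 13.3 ± 9.82 against 889 ± 92.3.

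No astroglial transporter, channel or gap junction gene was higher: 28 of 29 were lower, with a median of -4.96, and Slc7a5 did not pass. The glutamate transporter gene Slc1a2 (chr2:102658659-102790784) had 323, 278, 421 and 356 CPM in Ki67-RFP libraries and 8286, 8487, 8537 and 8293 CPM in Troy-GFP libraries. Ki67-RFP library 4 stood above the other Ki67-RFP libraries for Aqp4 (0, 0, 0 and 14.6 CPM) and for Clu, the clusterin gene (18.6, 16.5, 5.59 and 56.5 CPM), at levels still far under those of Troy-GFP. Slc4a4, a bicarbonate transporter gene, had 4.74 ± 4.26 against 849.5 ± 109 CPM. The zinc transporter gene Slc39a12 had 2.00 transcripts in all Ki67-RFP cells together, and 315 to 391 CPM in Troy-GFP libraries.

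Of 38 tested transcription factor genes of astroglia and stem cells 26 were lower and 6 higher, with a median of -1.70. Id3, an inhibitor of differentiation induced by BMP, had 2.06, 6.17, 1.86 and 11 CPM in Ki67-RFP libraries and 483, 537, 516 and 447 CPM in Troy-GFP libraries, and Hopx, a homeobox gene of quiescent stem cells in several tissues, 3.86 ± 2.80 against 183 ± 73.9 CPM. Hes5, a target of Notch signalling (chr4:154960923-154962371), had 56.1, 85.8, 89.1 and 166 CPM against 538, 568, 626 and 726 CPM and changed by -2.69 ± 0.19 (limma adjusted p = 6.23e-12). The RBPJ word GTGGGAA, that of the DNA-binding partner of Notch, was found in 4 of 53 windows of this list (7.55%), against 6.38% of all windows. The Hes5 promoter, 1 of those 4, is shown with this word on either strand in capitals.
Hes5, chr4:154960673-154960972, plus strand: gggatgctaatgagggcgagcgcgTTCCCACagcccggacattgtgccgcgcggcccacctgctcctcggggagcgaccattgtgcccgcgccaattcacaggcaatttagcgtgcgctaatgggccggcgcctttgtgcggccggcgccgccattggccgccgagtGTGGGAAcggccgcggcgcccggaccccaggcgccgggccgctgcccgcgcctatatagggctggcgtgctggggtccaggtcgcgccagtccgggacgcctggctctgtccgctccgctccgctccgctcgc

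The transcription factor genes that were higher in Ki67-RFP included Nfia, Nfib, Nfix and Pou3f3. Nfib, of the nuclear factor I family (chr4:82290173-82705750), had 1745, 1982, 1854 and 1870.3 CPM in Ki67-RFP libraries and 798, 819.8, 829.9 and 851 CPM in Troy-GFP libraries, a difference of 1.18 ± 0.09. Its relatives Nfix and Nfia changed by 0.96 ± 0.11 and 0.56 ± 0.10. Pou3f3 changed by 0.48 ± 0.12, a call that ended after thinning (0.10), as did that of Nfia (0.27).

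Lipid and energy metabolism genes were mostly lower. Of 48 genes of lipoproteins, fatty acids and cholesterol 34 were lower and 3 higher (Fabp5, Fdps and Oxct1), with a median of -1.57. Apoe, the apolipoprotein E gene, had 461 ± 193 CPM in Ki67-RFP and 10101 ± 1016 in Troy-GFP, Scd2, a fatty acid desaturase gene, 765 ± 30.1 and 1721 ± 43.2, and Dbi, whose protein binds acyl-CoA, 477 ± 49.9 and 917 ± 217. Fdps, an enzyme of the cholesterol pathway, was higher (0.85 ± 0.20). Scd2 and Dbi were thus lower by a smaller factor than Apoe, 2.25-fold and 1.89-fold against 22.9-fold.

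Of 39 genes of glycolysis, glycogen and amino acids 28 were lower and 4 higher, with a median of -1.35. Glul, the gene of glutamine synthetase (chr1:153899944-153909723), had 283, 199.9, 238 and 262 CPM in Ki67-RFP libraries and 2259.8, 2269, 1867 and 1894 CPM in Troy-GFP libraries. Aldh1l1, a folate enzyme of astrocytes, had 2.39 ± 2.82 against 124 ± 26.2 CPM and the lactate dehydrogenase gene Ldhb 341 ± 33.7 against 880.4 ± 59.3. Mthfd2, a mitochondrial enzyme of the folate cycle, was higher (1.86 ± 0.37), as were Gpx1, a glutathione peroxidase gene (0.90 ± 0.20), Got2 and Shmt2. Gapdh, the glycolytic gene, did not pass, with 2024, 2115, 1925 and 2134 CPM against 1755, 1971, 1850.4 and 2157 CPM (limma adjusted p = 0.35), but it was lower in Ki67-RFP after thinning (-0.35) and higher with library totals as the scale (0.19) or without the filter on low values (0.21), passing in each.

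Of 49 tested receptors and ligands of niche signals 35 were lower and 7 higher, with a median of -1.08. Among receptors, Ntrk2, the BDNF receptor TrkB (chr13:58806569-59133970), had 114, 105, 142 and 98.8 CPM in Ki67-RFP libraries and 1476, 1177, 1219 and 1406 CPM in Troy-GFP libraries. Gpr37l1, a G protein-coupled receptor gene of glia, had 50.03 ± 22.3 against 2475 ± 162 CPM. Ptprz1, a receptor phosphatase gene, had 378, 414, 476 and 501 against 1328, 1309.5, 1434 and 1366 CPM, while Mdk, which encodes its ligand midkine, had the opposite order, with 1003, 1182, 898 and 973 against 373, 369, 446 and 529 CPM. Other members that were higher were the Notch ligand genes Dll1 (1.55 ± 0.34) and Dll3, Mfng, which modifies Notch, the TGF-beta receptor gene Tgfbr1 (1.52 ± 0.23), Smad4 and Fzd3. The proteoglycan gene Sdc4 had 2.00 transcripts in all Ki67-RFP cells together and 149.8 ± 20.2 CPM in Troy-GFP.

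Of 46 genes of the matrix, adhesion and tetraspanins 41 were lower and 2 higher, with a median of -2.87. Cst3, the gene of the secreted protease inhibitor cystatin C, had 918, 772, 1089 and 971 CPM in Ki67-RFP libraries and 8238, 7115, 6961 and 5577 CPM in Troy-GFP libraries. Cpe, a carboxypeptidase gene, had 563 ± 56.4 against 3148 ± 276 CPM, Mt1, the gene of a metallothionein, 196 ± 44.3 against 2384 ± 175, and Crym, which encodes a thyroid hormone-binding protein, 2.57 ± 5.14 against 459.6 ± 137. The members that were higher encode intermediate filaments of neural progenitors. Vim, the vimentin gene, had 454, 604, 506 and 662 CPM against 342, 232, 192 and 268 CPM. Nes, the nestin gene, had 43.4, 45.2, 57.8 and 82.2 against 31.4, 30.9, 32.4 and 54.5 CPM, and the sorts overlapped (0.63 ± 0.27, limma adjusted p = 0.044). The call of Nes ended in 10 of 21 alternatives, among them without Ki67-RFP library 3 (0.65) or 4 (0.46) or Troy-GFP library 1 (0.55), 2 (0.54) or 3 (0.59).

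Lysosome genes were lower in 28 of 44 cases and higher in 6, with a median of -1.03. Psap, the gene of prosaposin, had 204 ± 25 against 781 ± 100.5 CPM and the protease gene Ctsb 99.2 ± 14.7 against 392 ± 22.1. Ctss, a protease gene of microglia, was higher, with 84.9, 106, 199 and 103 CPM in Ki67-RFP libraries and 0, 0, 5.39 and 0 CPM in Troy-GFP libraries. The 10 microglial markers, of which Ctss is 1, summed to 414 to 743 CPM in Ki67-RFP and 2.05 to 24.2 in Troy-GFP, 6 of 6 tested ones, Ctss included, were higher, and C1qb, a complement gene, was at least 49-fold higher (Troy-GFP at 0, floor of 3 transcripts over the group). Cells with 5 or more microglial transcripts per 1000 numbered 8 of 315 in Ki67-RFP and 0 of 311 in Troy-GFP.

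Immediate early and heat shock genes had no common direction, with 10 of 24 higher and 7 lower. Hsp90aa1, a chaperone gene, changed by 1.17 ± 0.09, its constitutive partner Hspa8 by 0.55 ± 0.09 and the immediate early gene Ier2 by 2.36 ± 0.33. Hspb1 (9.84 ± 16.2 against 199 ± 87.9 CPM) and Hspa1a (3.55 ± 5.96 against 124 ± 57.3 CPM), both stress-induced, were lower.

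Markers of vascular and ciliated cells moved with the Troy-GFP sort. The 9 endothelial markers summed to 0 to 10.9 CPM in Ki67-RFP libraries and 533 to 983 in Troy-GFP libraries, 5 of 5 tested ones were lower and 4 were at 0 in Ki67-RFP. Flt1, a VEGF receptor gene, was at 0 in Ki67-RFP, at least 65.5-fold lower by the same floor. Pericyte and smooth muscle markers summed to 0 to 3.72 against 64.7 to 273 CPM, and ependymal markers to 0 to 12.3 against 117 to 469 CPM. Cells with 5 or more endothelial transcripts per 1000 numbered 0 in Ki67-RFP and 25 in Troy-GFP, and with 5 or more ependymal ones 0 and 5. Markers of oligodendrocyte precursors (1.82 to 142 against 14.6 to 535 CPM), oligodendrocytes (29.8 to 63.8 against 32.9 to 85.5) and choroid plexus (0 to 126.1 against 0 to 647) overlapped between the sorts. Mature neuron markers summed to 59.7 to 102 CPM in Ki67-RFP and 22.6 to 46.6 in Troy-GFP. The part of these cells in the gene differences was not tested beyond the restriction to other cells given below.

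Where transcripts were found within each sort differed between genes. Of Ki67-RFP cells 306 had under 10 astroglial transcripts per 1000 and 9 had 10 or more, and of Troy-GFP cells 66 and 245. Only 38 of the 66, but 297 of the 306, had under 5 transcripts of every marker list of other cell types. Shares of the 66 thus include cells marked by other types. Mki67 was found in 71.6% of the 306 Ki67-RFP cells, in 40.9% of the 66 Troy-GFP cells under the limit and in 5.31% of the 245 above it. After thinning these shares were 40.2%, 24.2% and 0.816%. Pooled over cells the level of Mki67 was 671 CPM of all transcripts in the 306 Ki67-RFP cells (exact Poisson 95% interval 636 to 708), 745 in the 66 Troy-GFP cells (672 to 824) and 33.3 in the 245 (24.4 to 44.5). Intervals here cover counting error only, cells of 1 library are not replicates of the condition, and these ranges cut the astroglial total rather than name a cell type.

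Tnfrsf19 had another distribution. It was found in 14.1% of the 306 Ki67-RFP cells, and in 33.3% of the 66 and 44.1% of the 245 Troy-GFP cells (3.92%, 7.58% and 15.5% after thinning). Of the 9 Ki67-RFP cells with 10 or more astroglial transcripts 7 had a transcript of it, and 55.6% did after thinning (exact 95% interval 21.2 to 86.3). Those 9 cells had medians of 17 astroglial, 2 neuroblast and 2 mitosis transcripts per 1000. Egfr was found after thinning in 4.58% of the 306, 25.8% of the 66 and 14.7% of the 245 cells.

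Ccnd2 was found in nearly all Ki67-RFP cells under the limit, 96.1% after thinning, against 59.1% of the 66 and 24.1% of the 245 Troy-GFP cells. Its levels without the cells marked by other types are given below. Rgcc was found in none of the 306, which allows up to 1.20% of cells with a transcript at this depth (exact 95% limit; no limit on cells that express it), and in 7.58% and 23.7% of the Troy-GFP cells. Nfib was found in 81.7% of the 306, 51.5% of the 66 and 45.3% of the 245 cells. Median transcripts per cell before thinning were 6206 in the 306, 6397 in the 66 and 5434 in the 245 cells. Among the 25 Troy-GFP cells with 5 or more endothelial transcripts (median 3134 transcripts) 0 had a transcript of Mki67 or Top2a. After thinning 2 of the 25 had one of Tnfrsf19, 2 one of Rgcc, 3 one of Pcna, 1 one of Egfr, 4 one of Ccnd2 and 5 one of Nfib. These cells had themselves been sorted as Troy-GFP, and free RNA in the Ki67-RFP wells was not measured. Thinned shares at or near those of the 25 cells are not read as expression or as differences. These are those of Tnfrsf19 in the 306 and the 66 cells, Egfr in the 306 and Rgcc in the 66. In the 245 they are those of Pcna, Mki67, Top2a and Arl6ip1.

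**Figure D4:**
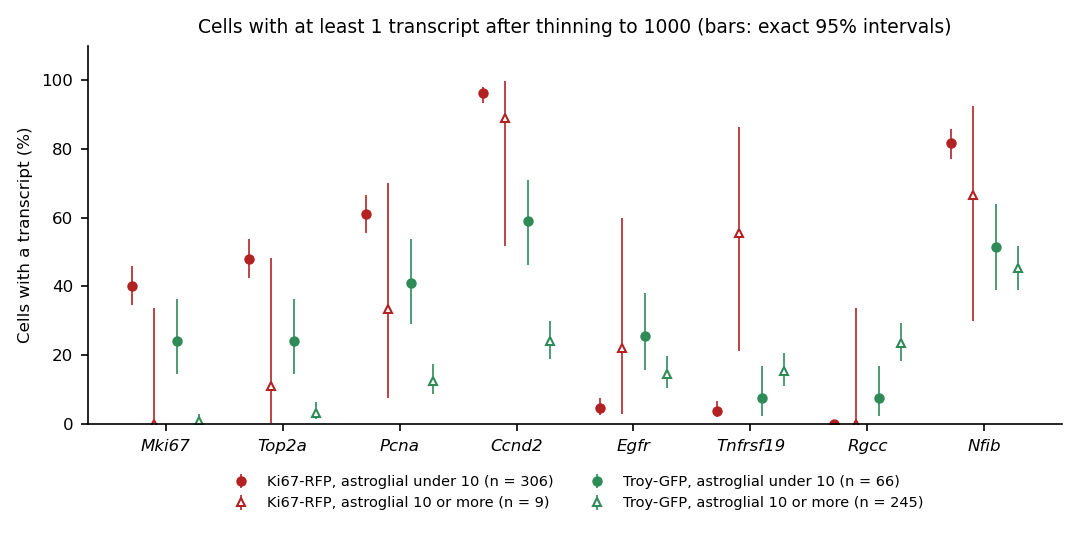
Share of cells (y axis, percent) with at least 1 transcript of 8 genes after thinning to 1000 transcripts, by sort (red Ki67-RFP, green Troy-GFP) and by astroglial transcripts per 1000 (circles under 10, triangles 10 or more), with exact 95% binomial intervals that cover counting error only. Mki67, Top2a and Pcna are found in 0.816%, 3.27% and 12.7% of the 245 Troy-GFP cells at or above the limit, and the 9 Ki67-RFP cells there give wide intervals.

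The sums were then repeated over cells with under 10 astroglial transcripts and under 5 of any marker list of other cell types, a restriction chosen after seeing the data. It left 297 Ki67-RFP cells (72 to 78 per library) and 38 Troy-GFP cells (7 to 13 per library), with medians of 6228 and 9896 transcripts per cell. The Troy-GFP sums were thinner, at 89258 to 120672 transcripts per library, against 463029 to 524105 in Ki67-RFP. Of 5516 genes tested 655 passed (11.9%), 268 higher in Ki67-RFP (4.86%) and 387 lower (7.02%). With a library left out 429 to 705 passed, but the filter then left other numbers of genes to test. Fewest passed without Ki67-RFP library 2, 429 of 2899 (14.8%, 170 higher and 259 lower). Most passed without Troy-GFP library 3, 705 of 7279 (9.69%). Limma-trend with pseudocounts of 1 and 5 gave 195 and 222 higher and 197 and 208 lower. Genes used for the restriction were left out, and a p that misses the threshold does not show equal levels.

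In these cells most replication genes did not pass. Of 46 tested members 1 was higher and none lower, and their median log2 fold change was -0.02, against 1.59 over all cells. Pcna had 2033, 1757, 1879 and 1937 CPM in Ki67-RFP libraries and 1402, 2556, 2331 and 1045 CPM in Troy-GFP libraries, with a log2 fold change of 0.13 ± 0.15 (limma adjusted p = 0.69). Top2a had 1182, 1280.2, 896 and 1456 CPM against 1029.6, 1652, 981 and 917 CPM (0.06 ± 0.16, limma adjusted p = 0.86). The spread of both genes among the Troy-GFP libraries overlapped the Ki67-RFP values, and for Pcna it covered all Ki67-RFP values. Mki67 had 698, 765, 649 and 857 CPM against 1048, 955, 733 and 1358 CPM and was lower by the test (-0.44 ± 0.14, limma adjusted p = 0.0424), a call that ended in 9 of 16 alternatives, with -0.25 without Troy-GFP library 4 and -0.38 to -0.45 without Ki67-RFP library 1 or 3 or Troy-GFP library 1 or 2. The tag on Mki67 in the Ki67-RFP mice cannot be told apart from the sort here either.

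Most genes of mitosis did not pass in these cells. The share of mitotic cyclins, kinases and checkpoint genes that passed was 16.1%, all as higher, against 4.86% of all tested genes that were higher. For the spindle list 14.3% passed in either direction, against 11.9% of all. Of 31 mitotic cyclins, kinases and checkpoint genes 5 were higher and none lower, with a median of 0.52, and of 42 spindle, kinetochore and condensation genes 3 were higher and 3 lower, with a median of 0.21. With under 5 astroglial transcripts these were 3 higher and 1 lower of 31 (median 0.26) and 1 higher and 3 lower of 42 (median 0.16). All 5188 genes tested under that limit gave 184 higher and 249 lower, so that 8.35% passed. Ccnb1 had 260.0, 290.1, 279 and 266 CPM in Ki67-RFP libraries and 94.7, 72.9, 114 and 114 CPM in Troy-GFP libraries (1.47 ± 0.25, limma adjusted p = 2.00e-04), and Ube2c 485 ± 71.1 against 207 ± 117 CPM (1.38 ± 0.27). Cdk1 did not pass (0.64 ± 0.26, limma adjusted p = 0.12), but did without Ki67-RFP library 3 (0.81). Cdkn1b was higher (0.89 ± 0.20), a call that ended within the shared flow cell (0.80), and Ccnd2 did not pass (0.26 ± 0.09, limma adjusted p = 0.0615), but did without Troy-GFP library 3 (0.40) or 4 (0.35).

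Neuroblast genes were still mostly higher in Ki67-RFP. Of 40 tested cytoskeleton, adhesion and migration genes 34 were higher and 1 lower, with a median of 1.03, and of 30 neurogenic transcription factor genes 14 and 2, with a median of 0.71. Stmn2 had 791, 1186, 602 and 1006 CPM in Ki67-RFP libraries and 95.7, 9.08, 655 and 79.6 CPM in Troy-GFP libraries, where library 3 lay within the Ki67-RFP range (3.65 ± 0.57, limma adjusted p = 7.58e-05). Sp9 had 266 ± 45.5 against 41 ± 14 CPM (2.53 ± 0.53), Tubb3 894 ± 94.4 against 286 ± 164 (1.80 ± 0.21) and Dlx1as 347 ± 31 against 44.1 ± 42.8 (3.61 ± 0.69). Pou3f3 (0.95 ± 0.18) and Nfib (0.55 ± 0.10) were higher as well.

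Egfr and several other receptor genes were lower. Egfr had 91.6, 115, 111 and 106 CPM in Ki67-RFP libraries and 591, 536, 294 and 605 CPM in Troy-GFP libraries (-2.22 ± 0.20, limma adjusted p = 1.49e-08). Every Troy-GFP library lay above every Ki67-RFP library. Among the 7 tested markers of activated stem cells and transit-amplifying progenitors 3 were lower and none higher, with a median of -0.53. With under 5 astroglial transcripts 2 of 7 were lower and none higher (median -0.52). Hes6, higher over all cells, was lower by the test here, a call that ended in 10 of 16 alternatives (-0.59 with under 5 astroglial transcripts). Over all cells Nes had been higher, whereas here it had 60.4 ± 15.8 against 122 ± 36.8 CPM (-1.03 ± 0.27, limma adjusted p = 0.012), a call that ended without Ki67-RFP library 2 (-0.98) or Troy-GFP library 4 (-0.81). Of 30 receptors and ligands none was higher and 13 were lower, with a median of -0.57, among them Ptprz1 (-1.05 ± 0.15), Ntrk2 (-1.997 ± 0.22) and Gpr37l1 (-2.85 ± 0.32). Under 5 astroglial transcripts 7 of 28 were lower, with a median of -0.50. Astroglial transporter genes (4 of 6 lower, median -1.31) and matrix genes (12 of 21 lower, 1 higher, median -0.82) were lower beside them, and the part of remaining astroglial transcripts in the receptor result was not tested. Tnfrsf19 did not pass, with 97.2, 34.7, 60.9 and 103 against 238, 129, 38 and 91 CPM, except without Troy-GFP library 3 (-1.02).

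Of the lists that had been higher over all cells, chromatin genes were now higher in 7 of 44 cases and lower in 4, splicing genes in 11 and 3 of 56, proteasome genes in 1 and 1 of 35, and ribosome assembly and translation genes in 3 and 6 of 55. Respiratory chain genes were higher in 8 of 72 cases and lower in none, with a median of 0.30. Hspa8, higher over all cells, was lower here (-0.52 ± 0.10, limma adjusted p = 8.82e-04), a call that ended within the shared flow cell (-0.43).

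**Figure D5:**
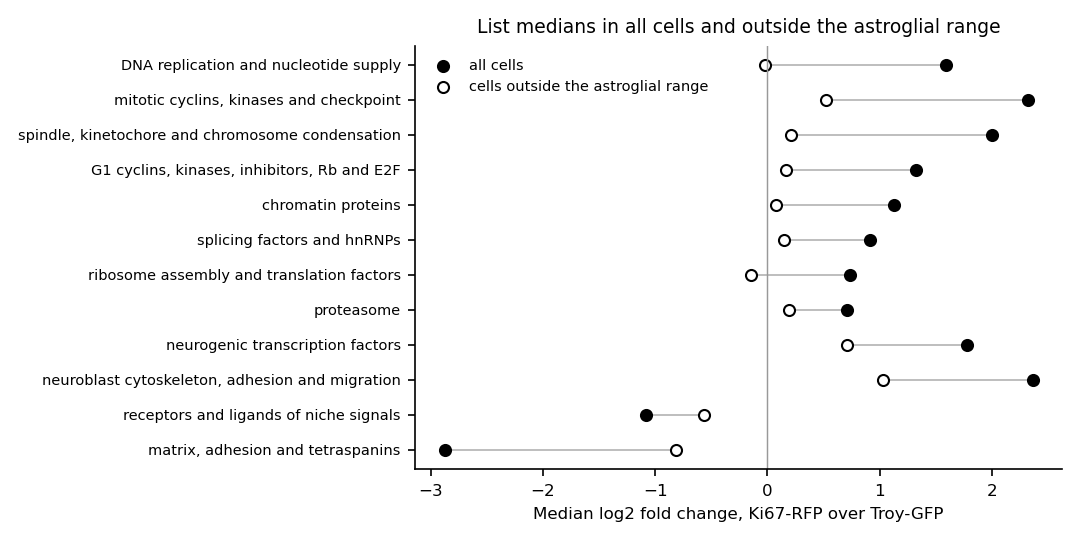
Median log2 fold change (x axis, Ki67-RFP over Troy-GFP) of 12 gene lists over all cells (filled) and over cells outside the astroglial range (open), joined by a line. The replication median is 1.59 over all cells and -0.02 outside the range, and the neuroblast cytoskeleton median 2.36 and 1.03.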

How the data were processed

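The deposited values are transcripts per gene and well that the authors made from random barcodes, corrected for barcode collisions: of 1753720 values above 0 in the 8 libraries all but 1 come from a whole number of the 256 possible barcodes (tolerance 1e-06). They are not raw counts, so limma voom was used in place of a count model. The submitters' processing notes name BWA 0.6.2-r126 and the build mm10, and the labels give paired reads of 75 bp. The counting program is not given in the sources used here. Wells with at least 1000 transcripts were summed per library. Genes with at least 10 transcripts per library of median size in 4 libraries and 15 in all were fitted with limma 3.58.1 in R 4.3.3, scaled by the trimmed mean of M values. Fold changes are Ki67-RFP over Troy-GFP, on the log2 scale, with standard errors. Cell measures used Python 3.11.15, numpy 2.4.6 and scipy 1.17.1, and figures matplotlib 3.10.9. Gene positions come from GENCODE M21 and promoters from RefSeq.

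The gene lists and the rule for named genes were chosen with earlier results of these data known. Named were the genes of the sorts, the 12 highest and 12 lowest fold changes, and in each list the 4 most abundant members, the 2 highest and 2 lowest that passed and up to 2 that passed against the list. The remaining members that passed or failed against their list are named without values and were chosen after their values were seen. Some genes that the rule names are not reported here.

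In data simulated for this comparison, with 7815 genes fitted, the test called 0.0787% of unchanged genes, 69.5% of genes changed by 1 on the log2 scale and 99% of genes changed by 2. Only 95 genes were changed by 1 and 100 by 2, in both directions, with the same relative spread set for all genes. In the data 59.7% of genes passed, so these are not the error rates of the reported fit. Alternatives were other scalings, no filter, limma-trend with pseudocounts of 1 and 5, cell limits of 500 and 2000 transcripts, thinning, uncorrected barcodes, equal weight per cell, sex chromosomes kept, all 28 libraries, 1 flow cell, a replicate block and each library left out.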

Additional observations from a re-analysis of the deposited data

Results flagged for a closer look

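Of 274 groups of 4 libraries compared, 22 held a library whose gap to the nearest of the others passed Dixon's 95% value, and chance gives about 1 in 20. In Ki67-RFP, library 4 stood apart upward for Aqp4 (14.6 CPM, the others at 0), Psmc6 (238 against 177 to 186 CPM) and Cldn5 (1.82 CPM, the others at 0), and downward for Eef1a1 (5639 against 5913 to 5952 CPM). Its median of astroglial transcripts per cell was 1 with the others at 0, and of neuroblast transcripts 9 with the others at 8. Ki67-RFP library 2 was high for Crym (10.3 CPM, the others at 0), Npm1 (1624 against 1557 to 1563 CPM) and Hspa1a (12.4 against 0 to 1.82 CPM). Ki67-RFP library 1 was high for Hspb1 (33.9 against 0 to 5.47 CPM), and library 3 low for H1f0 (524 against 674 to 695 CPM).

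In Troy-GFP, library 3 was high for Stmn2 (158 against 14.4 to 26 CPM) and Ctss (5.39 CPM, the others at 0), and 2.78% of its cells had 10 or more neuroblast transcripts, with none in the others. Troy-GFP library 4 was low for Syne1 (809 against 1001 to 1038 CPM), Slc1a3 (3212 against 3491 to 3521 CPM) and Psap (630.3 against 827 to 834 CPM), and high for Nes (54.5 against 30.9 to 32.4 CPM) and Csf1r (2.59 CPM, the others at 0). Troy-GFP library 1 was high for Nfia (691 against 617 to 627 CPM) and Hspa8 (1180.5 against 1021 to 1032 CPM), and its cells had a median of 9.50 transcripts per spike-in transcript, against 10.6 to 10.8 in the others.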

How the results depend on the processing

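In each alternative, no gene that passed there and in the reported fit had opposite signs in them. Thinning to 1000 transcripts left 1716 genes to test, of which 1154 passed, 532 higher and 622 lower. Leaving out each library gave 4594 to 4896 passing genes, 2127 to 2329 higher and 2462 to 2612 lower. With the replicate number as a block 4756 passed, 2261 higher and 2495 lower. Same-numbered libraries of the sorts did not deviate together (r of -0.012 to 0.016 across genes) and not every library correlated best with its own number, so the numbers did not pair them. Of the genes given with values 113 kept their call and sign in every alternative run. Reversed signs were those of Pola2 (0.12 with equal weight per cell, 0.23 within the flow cell, -0.36 to 0.032 with a library left out), Ckap5 (0.0025 without the filter, -0.19 to 0.013 with a library left out) and Gapdh (-0.35 thinned, -0.059 with equal weight). The cause was not tested.

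Thinning to 2000 in place of 1000 transcripts, which about doubles totals by construction, moved the medians per cell to differences of -85.5 astroglial, 16.75 neuroblast, 20.5 mitosis and 10.5 replication transcripts. Shares then differed by 5.37 (a mitosis transcript), 14.6 (a replication transcript), -80.8 (10 astroglial), 69.6 (10 neuroblast) and -76.2 (astroglial with mitosis) percentage points. At 1000 transcripts the last measure held 9 of the 9 astroglial Ki67-RFP cells and 183 of the 245 Troy-GFP ones. It needs only 1 transcript of any mitosis gene (Arl6ip1 was in 34.7% of the 245, Mki67 in 0.816%) and is not a share of dividing cells. Genes detected differed by 23.4 and no longer passed (exact permutation p = 0.0857).

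Outside the astroglial range counts varied more, and so did the number of genes that the filter left to test. Of 5516 genes 392 and 430 passed with limma-trend and pseudocounts of 1 and 5 (197 and 208 lower). Within the flow cell 297 of 7684 passed (86 higher, 211 lower), and 433 of 5188 with under 5 astroglial transcripts (249 lower). With a library left out 2899 to 7349 genes were tested and 429 to 705 passed (170 to 263 higher, 259 to 442 lower). With no filter 3821 of 13873 passed (760 higher, 3061 lower), among them genes at or near 0 in sums of unequal depth. With the block 743 passed. Top2a (-0.14) and Pcna (-0.0105) reversed with under 5 astroglial transcripts, with -0.064 to 0.33 and -0.063 to 0.40 where a library was left out, and Tnfrsf19 (0.10) reversed within the flow cell. Of 26 genes followed in these cells 15 kept their call and sign in every alternative, and 8 changed call or sign with a library left out. The 38 Troy-GFP cells limit what this comparison can show.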
